A study of Mus musculus with 12 samples.

Results

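The 46 genes described here act in the G2 phase of the cell cycle and in mitosis. They were chosen as a list of mouse gene symbols, from the cyclins that start mitosis to the proteins that pinch the daughter cells apart, and not by a threshold on their values. All 46 were found by Entrez gene ID among the 27179 gene IDs of the deposited count table, and all 46 passed the filter on low counts.

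Entry into mitosis is driven by cyclin-dependent kinase 1 (CDK1) bound to cyclin A or cyclin B, which CDC25 phosphatases switch on. Polo-like kinase 1 and the Aurora kinases then build the spindle, and the spindle checkpoint holds the cell until each kinetochore, the protein plate on a centromere, has caught microtubules. Once it is released, the anaphase-promoting complex with CDC20 marks securin and cyclin B for destruction, separase cuts the cohesin rings, and the central spindle guides cytokinesis. Germinal centre (GC) B cells are among the fastest dividing cells of the body, and plasmablasts are the dividing or recently divided antibody-secreting cells that come before non-dividing plasma cells.

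RNA sequencing was done on 12 libraries of sorted C57BL/6 B cells in 6 groups of 2, each made from the pooled polyA RNA of 2 to 8 mice. Mice had been immunised with the hapten-protein conjugate NP-KLH in alum. In the Myb experiment GC B cells were taken on day 12, and plasmablasts on day 5 after a second injection of NP-KLH in PBS. The Myb control was Myb fl/fl without cre, and the Myb knockout was Myb fl/fl CD23-cre T/+, whose recombinase is driven from a B cell promoter. Hence cre itself cannot be told apart from loss of Myb, which encodes the transcription factor c-Myb. In the Moz experiment GC B cells were taken on day 7 from AID-cre T/+ controls and from Moz fl/fl AID-cre T/+ knockouts, in which cre comes on in activated B cells. Moz (gene symbol Kat6a) encodes a histone acetyltransferase. For Myb, 5 control and 5 knockout mice gave GC B cells, and 13 control and 9 knockout mice gave plasmablasts. For Moz, 11 control and 14 knockout mice were used.

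Libraries held 8285934 to 24801297 counts. The share of immunoglobulin counts was 66.7 ± 2.38% in control and 69.3 ± 0.97% in knockout plasmablasts (SD, n = 2 pools), against 9.16% at most among the GC pools. This leaves a smaller share of the counts for all other genes in plasmablasts. Their libraries were larger in total, at 19027311 to 24775050 counts against 8285934 to 9963612 in the Myb GC pools. The lowest count of a G2 and mitosis gene in any library was 8, in a plasmablast pool. Of 10 plasmablast markers, 10 were higher in control plasmablasts than in control GC B cells, and 11 of 12 GC markers were lower. Of 6 tested naive follicular B cell markers 4 were lower, while 2 of 6 myeloid and 1 of 8 T cell markers were higher. In the same comparison 28.1% of all tested genes were called lower and 25% higher. The myeloid and T cell counts are too small to set apart from that share. Over the 12 pools, summed T cell markers ranged from 6.55 to 12.6 TMM-scaled CPM (counts relative to library size, with libraries scaled by the trimmed mean of M values), erythroid markers from 0.41 to 2.42 and naive follicular markers from 43.6 to 562. Summed myeloid markers ranged from 6.09 to 36.9 in GC pools and from 20.1 to 66.0 in plasmablast pools. The summed plasmablast markers were 1261 to 2044 in Myb control GC pools, 5302 to 5980 in Moz control GC pools and 110714 to 150683 in control plasmablast pools.

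Promoters of mitotic genes are known to carry CCAAT boxes, bound by NF-Y, and the cell cycle genes homology region (CHR), bound by the MuvB complex, to which MYB proteins or the repressors of the DREAM complex attach. RefSeq promoter sequences (GRCm38.p6) were matched for 38 of the 46 genes, in 41 windows of 250 bases before a transcript start. On both strands, CCAAT lay in 32 of 41 windows (78.0%), against 33.8% of all 32851 promoter windows of the same length. The CHR letters TTTGAA or TTCGAA lay in 16 windows (39.0%, against 17.1% of all), and both motifs in 15 (36.6%, against 6.02%). A MYB site, searched as the letters CAACTG and as CAACGG, also in the form TAACTG and as well in the form TAACGG, lay in 14 windows (34.1%, against 23.7%). These are letter matches, not measured binding. The 150 bases before the start are shown for selected genes, 5′ to 3′ on the gene's strand. Genes with both motifs make up a larger part of those shown than of the 38 genes, of which 13 hold both. CCAAT and CHR matches of either orientation are in capitals (ATTGG is CCAAT, and TTCAAA is TTTGAA, on the other strand).
Ccnb2, chr9:70421555-70421704 (- strand): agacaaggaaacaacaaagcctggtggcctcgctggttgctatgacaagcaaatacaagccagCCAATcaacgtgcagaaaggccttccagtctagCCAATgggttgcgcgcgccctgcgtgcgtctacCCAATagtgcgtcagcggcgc
Cdk1, chr10:69352913-69353062 (- strand): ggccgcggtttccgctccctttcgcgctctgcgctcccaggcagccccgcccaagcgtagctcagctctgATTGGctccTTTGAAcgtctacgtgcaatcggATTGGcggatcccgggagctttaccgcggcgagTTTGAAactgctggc
Cdc20, chr4:118437344-118437493 (- strand): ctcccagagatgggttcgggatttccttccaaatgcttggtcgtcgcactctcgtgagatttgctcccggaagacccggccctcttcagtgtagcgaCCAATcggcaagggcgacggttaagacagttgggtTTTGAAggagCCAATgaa
Ube2c, chr2:164769779-164769928 (+ strand): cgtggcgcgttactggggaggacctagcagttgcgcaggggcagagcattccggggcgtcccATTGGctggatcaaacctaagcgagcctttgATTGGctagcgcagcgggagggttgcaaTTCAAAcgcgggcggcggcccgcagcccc
Cdca8, chr4:124936918-124937067 (- strand): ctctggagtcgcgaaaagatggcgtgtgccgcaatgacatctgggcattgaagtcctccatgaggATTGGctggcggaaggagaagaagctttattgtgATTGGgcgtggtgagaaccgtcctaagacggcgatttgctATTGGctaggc
Mki67, chr7:135716380-135716529 (- strand): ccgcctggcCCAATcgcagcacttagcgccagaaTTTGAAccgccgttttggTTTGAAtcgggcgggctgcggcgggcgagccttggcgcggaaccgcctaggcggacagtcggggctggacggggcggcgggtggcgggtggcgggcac
Pttg1, chr11:43425982-43426131 (- strand): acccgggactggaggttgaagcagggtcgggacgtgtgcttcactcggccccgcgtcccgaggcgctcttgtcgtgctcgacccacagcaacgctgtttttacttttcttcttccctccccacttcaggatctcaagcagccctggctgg
The first 4 genes encode cyclin B2, CDK1, CDC20 and the ubiquitin-conjugating enzyme UBE2C, and they hold both motifs in the searched window, the CHR of Ccnb2 lying upstream of the bases shown. Cdca8, with the largest fold of the plasmablast comparison, holds 3 CCAAT boxes and no CHR match. Pttg1, the 1 gene that was not lower in plasmablasts, holds neither in its window, which lies within the annotated span of the gene. The other 7 genes with neither (Anln, Birc5, Kif20b, Mad2l1, Ndc80, Nuf2 and Nusap1) were all called lower in plasmablasts.

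Control plasmablasts held far less of these transcripts than control GC B cells. Of the 46 genes, 45 were lower, 0 were higher and 1, Pttg1, was not called (edgeR quasi-likelihood test, Benjamini-Hochberg adjusted p under 0.05). Over all 13131 tested genes, 28.1% were called lower. The median change of the 46 was -3.73 on the log2 scale, 13.3-fold lower, against -0.17 over all tested genes. Folds of the called genes ran from 3.31 (Mki67) to 28.9 (Cdca8). The pools did not overlap, with plasmablasts lower, for 45 genes, against 41.3% of all genes. In 45 genes each of the 4 plasmablast pools, knockouts included, lay below each of the 8 GC pools. The share of all genes under this wider rule was not counted, so no background stands beside it. These are bulk samples, so fewer dividing cells and less of the transcript in each cell cannot be told apart. As a share of all counts outside immunoglobulin genes, the 46 genes together took 0.978% and 0.747% in the Myb control GC pools and 0.0829% and 0.0803% in the control plasmablast pools.

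**Figure D1:**
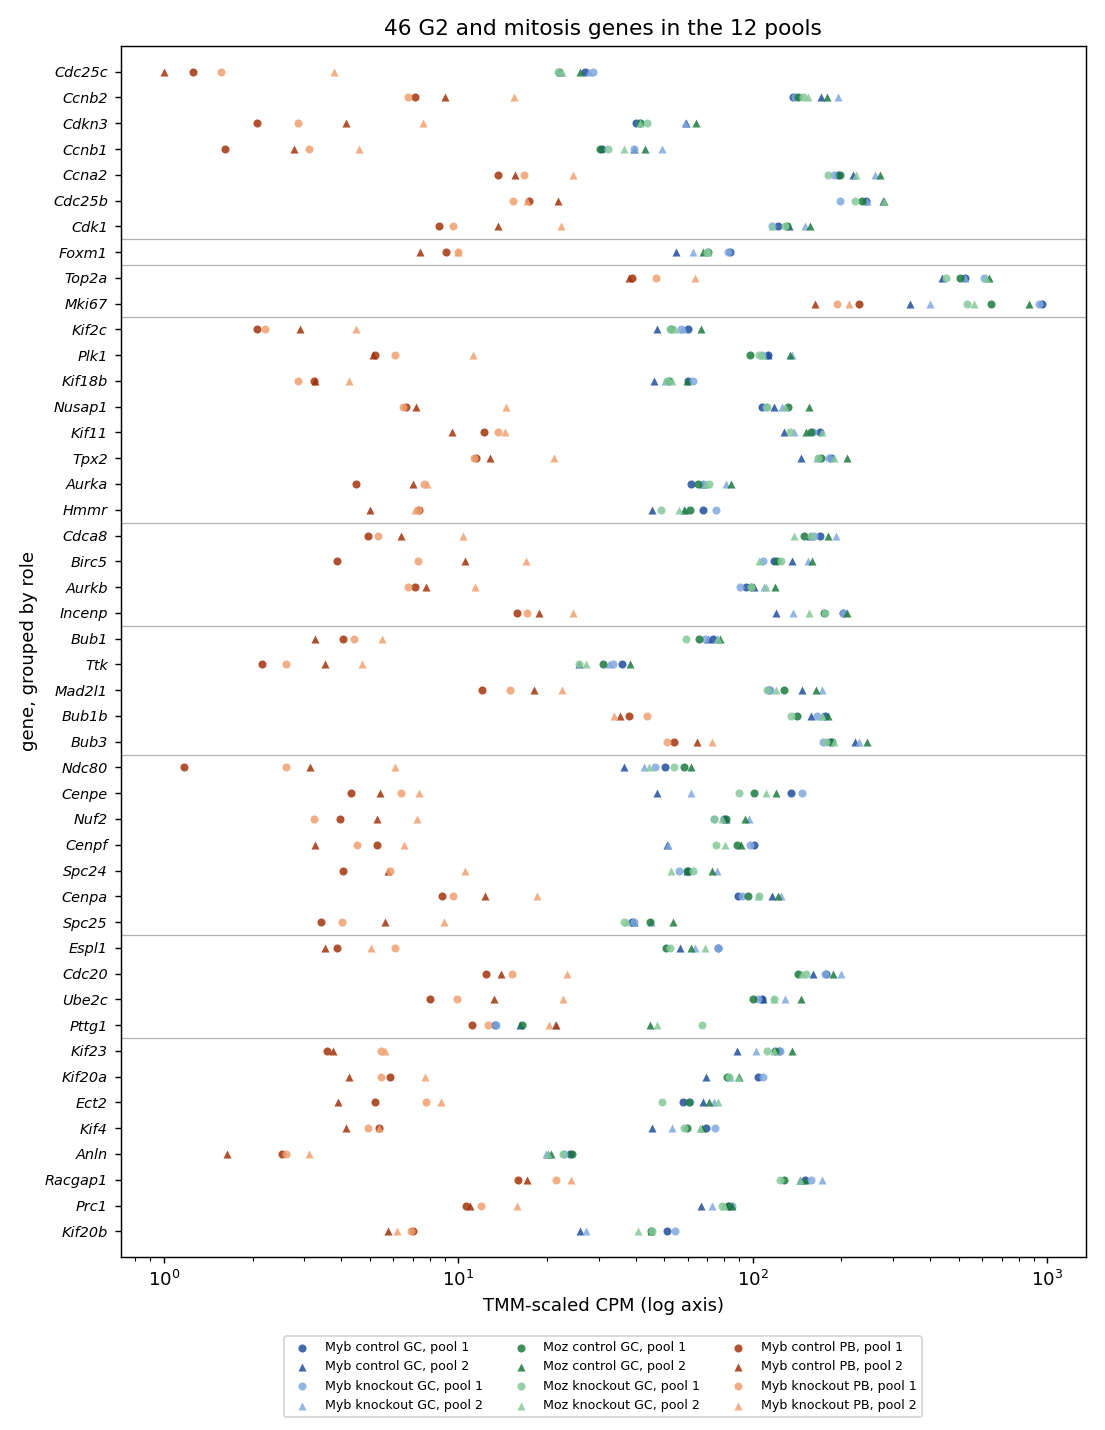
TMM-scaled CPM (log axis) of each of the 46 genes, grouped by role, with 1 point per pool and colour by group. The 4 plasmablast pools sit to the left of the 8 GC pools for 45 genes, and Pttg1 is the exception.

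Among the cyclins, CDK1 and its regulators, 7 of 7 genes were lower in control plasmablasts, with a median log2 change of -4.03. Ccnb2 (cyclin B2) is the highest of them per transcript length in each GC group, by mean TMM-scaled RPKM (reads scaled to library size and to gene length). It measured 136 and 170 TMM-scaled CPM in control GC pools and 7.09 and 9.04 in control plasmablast pools, groups that do not come near each other (log2 change -4.25, SE 0.37, edgeR adjusted p = 2.17e-06). Cdk1 changed by -3.52 on the log2 scale (SE 0.37), the smallest of this group. Its partners Ccna2 (cyclin A2, -3.82) and Ccnb1 (cyclin B1, -4.03) changed more. The activating phosphatases Cdc25b and Cdc25c changed by -3.74 and -4.41, and Cdkn3, a phosphatase that acts on CDK1, by -4.04. Ccnb1 has 5 pseudogenes at least 95% identical to it, up to 99.2% over 1287 bases, so its counts may be split. Near copies of at most 488 aligned bases exist for Mad2l1, Mki67, Ndc80 and Racgap1.

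Foxm1 encodes a forkhead factor that activates late cell cycle genes together with the MuvB complex. It measured 83.3 and 55.0 TMM-scaled CPM in control GC pools and 9.07 and 7.40 in control plasmablast pools. Its log2 change was -3.06 (SE 0.25, edgeR adjusted p = 1.36e-06), smaller than the median of the 46 genes. Top2a, the topoisomerase that disentangles sister DNA, measured 524 and 438 in GC and 38.8 and 37.9 in plasmablast pools (log2 change -3.65, SE 0.28).

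Mki67 (Entrez gene 17345, chr7:135689784-135716450, GRCm38.p6) encodes Ki-67, the coat of mitotic chromosomes used as a marker of cycling cells, and its drop was the smallest of the called genes. The control GC pools held 957 and 341 TMM-scaled CPM of it, and the control plasmablast pools 229 and 162. The GC pools differ from each other by more than the lower of them differs from the plasmablasts. The log2 change was -1.73 (SE 0.48, edgeR adjusted p = 0.00961), and the plasmablast level was 30.2% of the GC level. The call is lost without Myb control GC pool 1 (-0.81, adjusted p = 0.148) and without control plasmablast pool 2 (-1.53, adjusted p = 0.0676), under the same edgeR test. Over its alternatives the adjusted p ran from 1.72e-08 to 0.148.

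All 8 genes of the mitotic kinases and spindle assembly were lower, with a median log2 change of -3.90. Plk1, the polo-like kinase, measured 112 and 113 TMM-scaled CPM in control GC pools and 5.21 and 5.15 in plasmablast pools (log2 change -4.44, SE 0.31). Kif2c, a kinesin that takes microtubules apart at centromeres, measured 60.2 and 47.2 in GC and 2.07 and 2.89 in plasmablasts (-4.46, SE 0.32). In both genes the 2 pools of a group lay close together beside the gap between the cell types. Aurka (Aurora A) changed by -3.51 and its activator Tpx2 by -3.76. The spindle kinesins Kif11 and Kif18b changed by -3.76 and -4.03, the microtubule binder Nusap1 by -4.03 and Hmmr, another spindle protein, by -3.18.

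The chromosomal passenger complex, which corrects faulty attachments and later steers cytokinesis, had 4 of 4 genes lower. Its subunit Cdca8 (borealin, Entrez gene 52276, chr4:124918465-124936917) measured 169 and 156 TMM-scaled CPM in control GC pools and 4.94 and 6.40 in plasmablast pools. That is 28.9-fold lower, the largest fold of the 46 (log2 change -4.85, SE 0.32, edgeR adjusted p = 3.18e-07). Its kinase Aurkb changed by -3.72, the scaffold Incenp by -3.22 and Birc5 (survivin) by -4.17. Birc5 was 18.0-fold lower with all pools and 33.3-fold lower without control plasmablast pool 2.

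In the spindle checkpoint 5 of 5 genes were lower (median log2 change -3.12), with some of the smallest changes among them. Bub3, a checkpoint subunit that is also an RNA-binding nuclear protein, measured 182 and 223 TMM-scaled CPM in GC and 54.0 and 64.4 in plasmablasts. This was 3.42-fold lower (log2 change -1.78, SE 0.25, edgeR adjusted p = 0.000108). Its partner kinase Bub1 fell 19.4-fold, a log2 change of -4.28 (SE 0.24), while the pseudokinase Bub1b changed by only -2.18 (SE 0.22). Bub1b measured 176 and 157 in GC and 37.9 and 35.5 in plasmablasts. Mad2l1, the inhibitor of CDC20, changed by -3.12 and Ttk, the kinase that starts the checkpoint, by -3.47. Genes of 1 checkpoint therefore kept between 5.09% (Bub1) and 29.2% (Bub3) of their GC level.

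**Figure D2:**
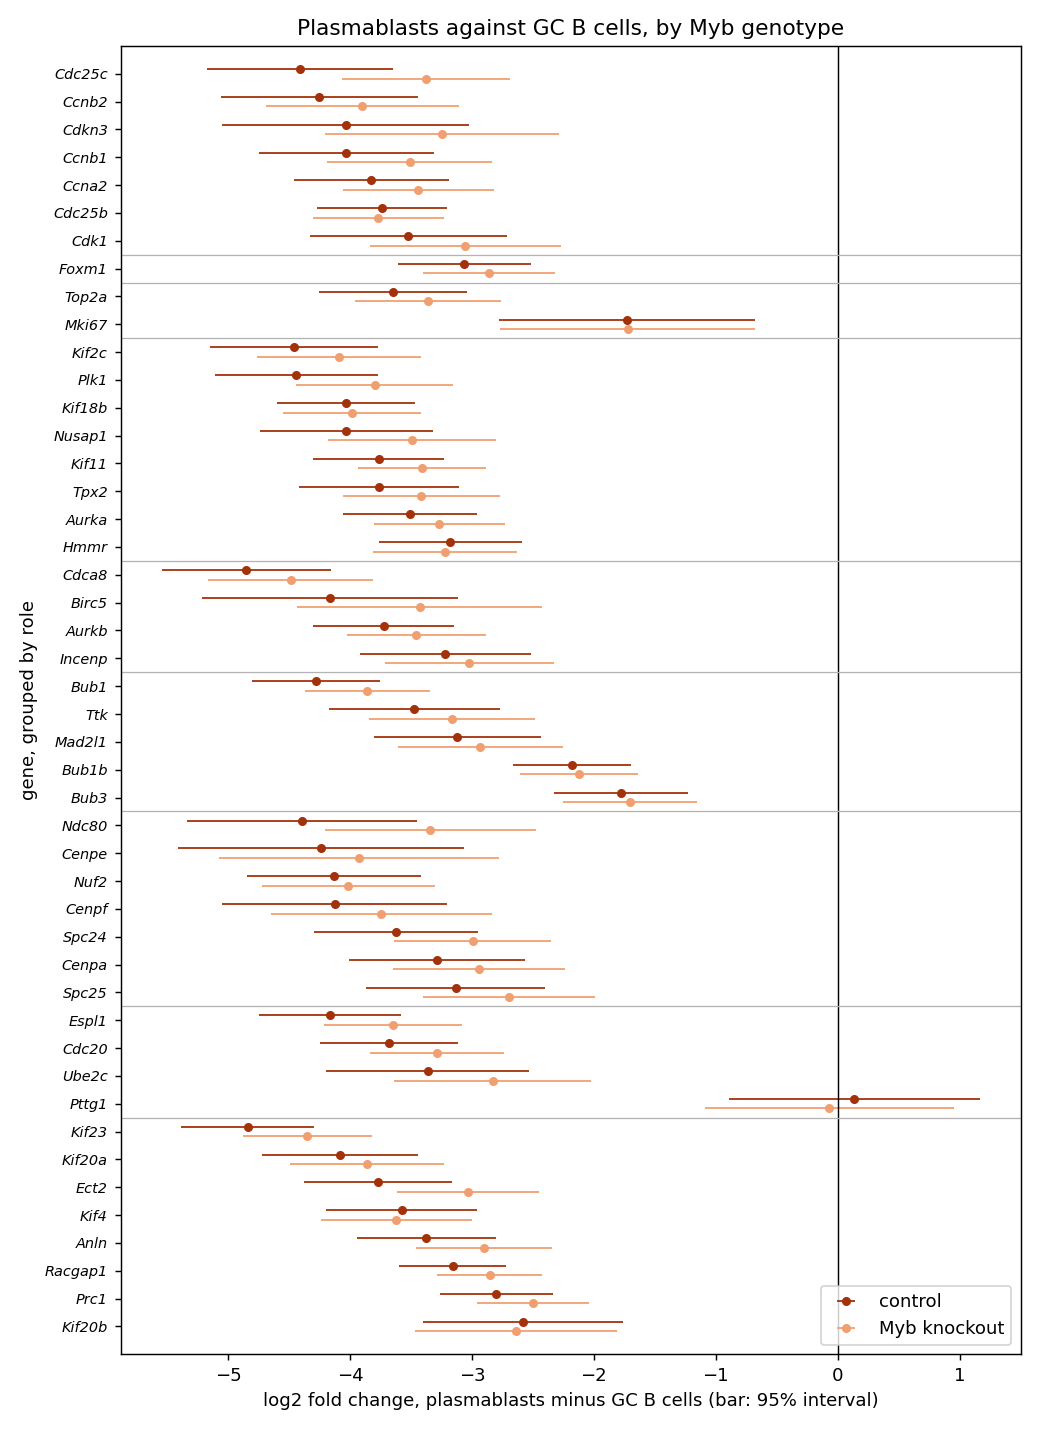
Log2 fold change of plasmablasts minus GC B cells for each gene, grouped by role, in control (dark) and Myb knockout (light) cells, with 95% intervals as bars. Most genes sit between -3 and -5, Bub3, Mki67 and Bub1b are nearer to 0, and the interval of Pttg1 spans 0.

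Of the centromere and kinetochore genes 7 of 7 were lower, with a median log2 change of -4.13. Cenpa, the histone variant that marks centromeres, measured 88.8 and 116 TMM-scaled CPM in GC and 8.80 and 12.3 in plasmablasts (log2 change -3.29, SE 0.33). The microtubule-binding NDC80 complex has 4 subunits, and Ndc80 (-4.39) and Nuf2 (-4.13) changed more than Spc24 (-3.62) and Spc25 (-3.13). The differences between these 4 genes were not tested. The kinesin Cenpe and its partner Cenpf changed by -4.23 and -4.13. Cenpe was 18.8-fold lower with all pools and 9.89-fold lower without Myb control GC pool 1. Ndc80 was 21.0-fold lower with all pools, 13.9-fold without control plasmablast pool 1 and 37.5-fold without pool 2.

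At anaphase onset 3 of 4 genes were lower. Ube2c, which charges the anaphase-promoting complex with ubiquitin, had the highest level per length of the 46 genes in each GC group, with a mean TMM-scaled RPKM of 116 in Myb control GC. In control plasmablasts, at 11.4, it came after Bub3 (28.8) and Mki67 (19.4). It measured 107 and 109 TMM-scaled CPM in GC and 7.99 and 13.2 in plasmablasts (log2 change -3.36, SE 0.38). Cdc20, the activator of the complex, changed by -3.68 and Espl1 (separase) by -4.16. The fourth, Pttg1 (Entrez gene 30939, chr11:43420244-43427463), encodes securin, which holds separase inactive until anaphase. Control GC pools held 13.3 and 16.2 TMM-scaled CPM of it and control plasmablast pools 11.1 and 21.5, so the groups overlap. The log2 change was 0.13 (SE 0.47, edgeR adjusted p = 0.825), and the plasmablast level was 111% of the GC level. Relative to total counts alone, without a correction for the immunoglobulin share, Pttg1 was lower in plasmablasts (-1.76, adjusted p = 0.00337), as were most genes, since the median of all genes then shifts to -2.04.

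**Figure D3:**
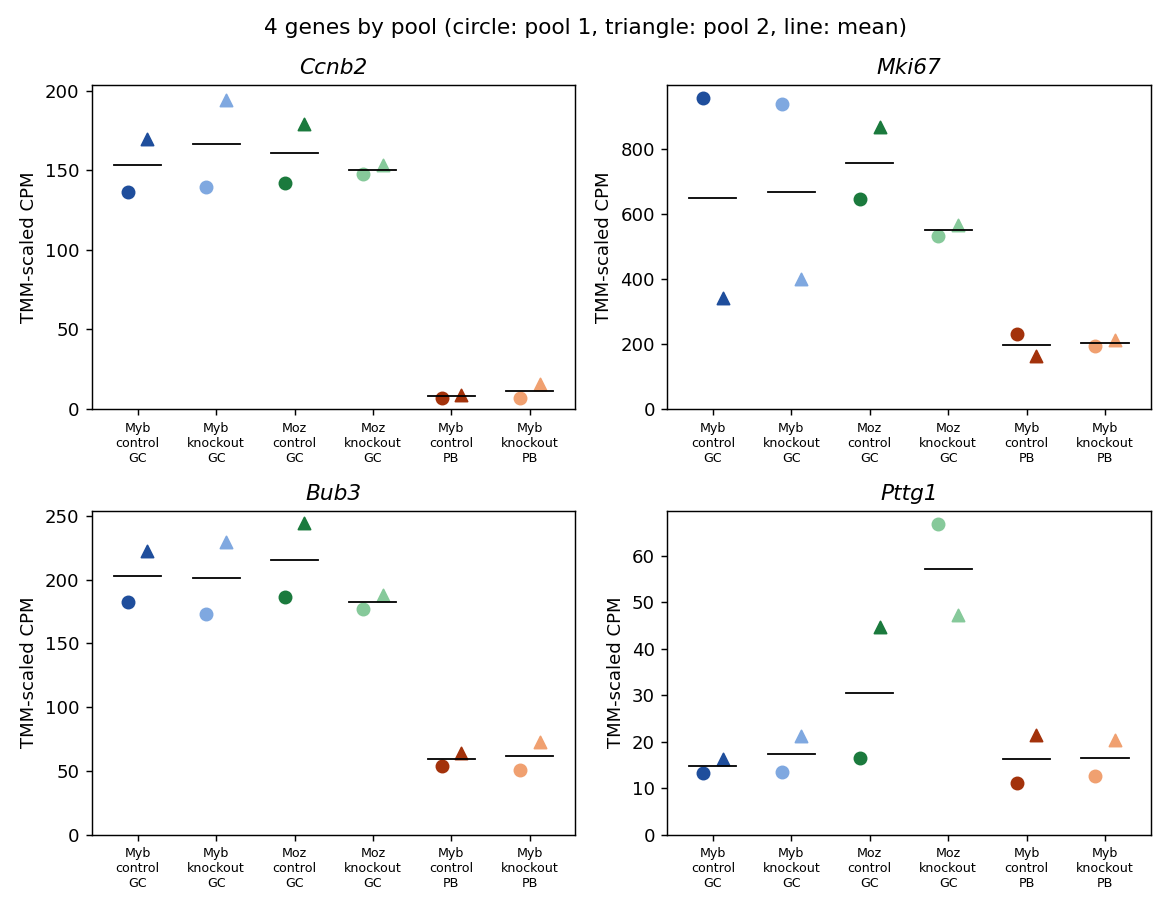
TMM-scaled CPM by pool for Ccnb2, Mki67, Bub3 and Pttg1 (linear axes, circles pool 1, triangles pool 2, lines the mean of 2 pools). Ccnb2 falls to 7.09 and 9.04 in control plasmablasts, Bub3 to 54.0 and 64.4, Mki67 has 1 high and 1 low pool in both day 12 GC groups, and the 3 highest values of Pttg1 are in Moz pools.

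Central spindle and cytokinesis genes were lower in 8 of 8 cases, with a median log2 change of -3.48. Kif23, the kinesin of the centralspindlin complex, measured 122 and 88.3 TMM-scaled CPM in GC and 3.59 and 3.77 in plasmablasts (28.6-fold lower, log2 change -4.84, SE 0.25, edgeR adjusted p = 1.03e-07). Racgap1, the other subunit of that complex, measured 150 and 144 in GC and 15.9 and 17.1 in plasmablasts (8.92-fold lower, log2 change -3.16, SE 0.20). Ect2, which activates RhoA at the cleavage site, changed by -3.77, and Anln, an organiser of the contractile ring, by -3.37. Prc1, the bundler of midzone microtubules, changed by -2.80. The kinesins Kif4, Kif20a and Kif20b changed by -3.58, -4.08 and -2.58. Exons of Kif20a share 1271 bases with Cdc23 on the other strand, and those of Prc1 share 911 with Rccd1. Kif4 shares 832 with Pdzd11, Cdc25c 623 with Gm3550, Ube2c 592 with Tnnc2 and Ccna2 510 with Exosc9, all on the other strand. Shorter overlaps exist for other members. Whether the counting used strand is not given, so some of these counts may belong to the neighbours.

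Myb knockout cells showed the same contrast, from pools that share no library with the controls. These pools share experiment dates with the control pools and come from the same fit, so this contrast is not independent of the first. In knockout plasmablasts against knockout GC B cells 45 of 46 genes were lower and 1, again Pttg1 (-0.07, edgeR adjusted p = 0.912), was not called, while 27.2% of all tested genes were lower. The pools did not overlap, with plasmablasts lower, for 45 genes, against 41% of all genes. The median log2 change was -3.35, 10.2-fold lower. The largest folds were again those of Cdca8 (22.4), Kif23 (20.4) and Kif2c (17.02). Cdca8 measured 161 and 192 TMM-scaled CPM in knockout GC and 5.32 and 10.3 in knockout plasmablast pools, Kif23 measured 123 and 103 against 5.45 and 5.62, and Kif2c 57.1 and 58.0 against 2.21 and 4.48. Bub3 measured 173 and 230 against 51.1 and 72.6 (3.25-fold lower). Mki67 measured 936 and 400 against 193 and 212 (3.30-fold lower, edgeR adjusted p = 0.0102). That call is lost without knockout GC pool 1 (-0.99, adjusted p = 0.107) and without knockout plasmablast pool 1 (-1.63, adjusted p = 0.0621). Leaving out knockout plasmablast pool 2 raised the folds of 11 genes by over 1.5 times, for example Cdkn3 from 9.50 to 17.7 and Cdk1 from 8.30 to 14.0.

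The 46 genes kept a median of 7.55% of their GC level in control plasmablasts and 9.75% in knockout plasmablasts. GC marker genes in the same control libraries fell further in several cases: Rgs13 to 0.39%, Gcsam to 0.82% and Bcl6 to 0.96% of the GC level, with a median of 7.15% over the 12 GC markers. The part of remaining GC B cells in the plasmablast values was not tested. No date of experiment is shared by plasmablast and GC pools, and the effects of date and cell type cannot be told apart.

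Loss of Myb in GC B cells left the 46 genes without a called change. None of the 46 was called by edgeR, DESeq2 or limma-voom, nor in the fit that takes the shared experiment date as a block (the replicate block). Background calls were 0.259% of tested genes, and 2.42% with the block. At an unadjusted p under 0.05 the count was 0 without the block, against 5.75% of all genes, and 3 with it, against 11.7%. The median log2 change was 0.09, and 42 of 46 estimates lay above 0, against 49.9% of all tested genes. For 43 genes the 95% interval stayed within a 2-fold change in either direction. The smallest p belonged to Ccnb1, Cdc25b and Hmmr. Ccnb1 measured 30.7 and 39.4 TMM-scaled CPM in controls and 39.4 and 49.0 in knockouts (log2 change 0.34, SE 0.26, edgeR adjusted p = 1, and 0.293 with the replicate block). Cdc25b measured 243 and 277 against 197 and 245 (-0.23, SE 0.21), and Hmmr 67.9 and 45.3 against 74.96 and 59.0 (0.24, SE 0.23). In all 3 genes the control and knockout pools overlap or touch. Within dates, 22 genes were higher in the knockout in pair 1 and 43 in pair 2, against 47.5% and 51.9% of all tested genes. In the same comparison the plasmablast markers had a median of 0.60, with 9 of 10 above 0 and 1 called higher (5 with the block), and 11 of 12 GC markers lay below 0 (median -0.24, 0 called). The part of these cell types in the values of the 46 genes was not tested.

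In plasmablasts the knockout estimates lay mostly above 0, with no gene passing the test. DESeq2, limma-voom and edgeR with or without the block called 0 of 46, against 0.0381% of all tested genes by edgeR and 0.579% with the block. At an unadjusted p under 0.05 edgeR gave 9 of 46 (3.78% of all genes), and 22 with the block (9.34%). The median log2 change was 0.44, and 45 of 46 estimates lay above 0, against 52.3% of all tested genes. The pools did not overlap, with the knockouts higher, for 18 genes, against 13.6% of all genes. These values lean on 1 library: knockout plasmablast pool 2 was the highest of the 4 plasmablast pools for 38 of 46 genes. The share of all genes that were highest in that pool was not counted. Without knockout plasmablast pool 2 the median was 0.07, and without knockout plasmablast pool 1 it was 0.65. In knockout pool 2 the 46 genes took 0.110% of counts outside immunoglobulin genes, against 0.0894% in the other knockout pool. Within dates, 32 genes were higher in the knockout in pair 1 and 43 in pair 2, against 48.1% and 51% of all tested genes. The median differences of the 46 genes were 0.16 and 0.60 in log2 CPM. Estimates lay above 0 for 4 of 10 plasmablast markers (median -0.03), 7 of 12 GC markers (0.05) and 0 of 6 myeloid markers (-0.16), with 0 called.

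Cdc25c had the smallest p, on few counts: 14 and 8 in control and 12 and 33 in knockout plasmablast pools. It measured 1.26 and 1.00 TMM-scaled CPM in control and 1.56 and 3.79 in knockout plasmablast pools (log2 change 1.24, SE 0.41, edgeR adjusted p = 0.924, with 0.235 to 1 over its alternatives), and the estimate was 0.43 without knockout pool 2. Ect2 measured 5.21 and 3.89 in control and 7.79 and 8.72 in knockout pools (0.85, SE 0.28, adjusted p = 0.963, and 0.137 with the replicate block), and both knockout pools lay above both controls. Plk1 measured 5.21 and 5.15 against 6.10 and 11.2 (0.75, SE 0.30, adjusted p = 1). Only 16 of the 46 genes had a 95% interval within a 2-fold change, and for the other 30 a 2-fold change lies inside the interval. On simulated counts the test recovered 42% of genes changed 2-fold and 100% of those changed 4-fold in this comparison, and 38% and 99% in GC B cells. Before the change, the simulation gave each gene the same share of counts in every library, and it changed only genes above a minimum total count. The low level of the 46 genes in plasmablasts was not simulated, so recovery at their plasmablast counts was not tested.

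The difference between the Myb effects in plasmablasts and in GC B cells was tested as an interaction, and 0 of 46 genes passed (0.00762% of all tested genes did, and 0.541% with the block). At an unadjusted p under 0.05 the count was also 0 (3.72% of all genes), and it was 5 with the block (7.74%). The median difference was 0.35 on the log2 scale, with 41 estimates above 0 (48.9% of all genes), and it was -0.02 without knockout plasmablast pool 2. The smallest p belonged to Cdc25c (1.03, SE 0.48), Ect2 (0.74, SE 0.37) and Ndc80 (1.05, SE 0.58), each with an adjusted p of 1.00, and the smallest adjusted p with the block was 0.313. A different response of mitotic genes to loss of Myb in the 2 cell types was thus not shown, and 10 of 46 intervals lay within 2-fold.

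**Figure D4:**
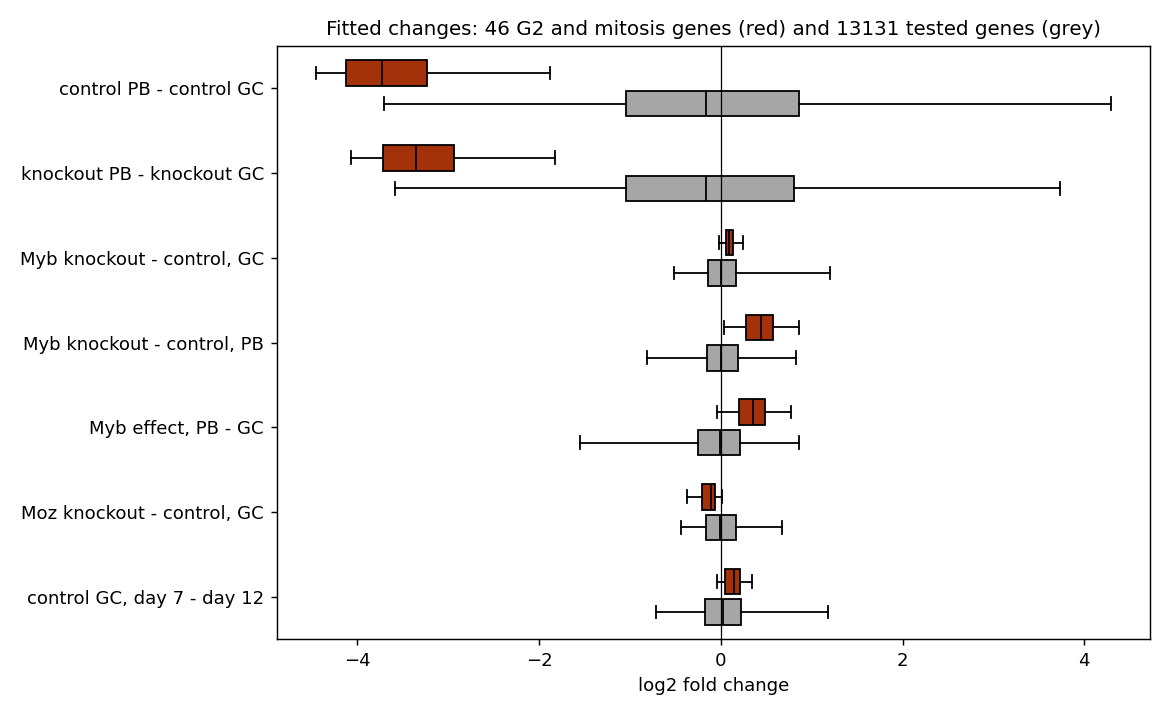
Fitted log2 fold changes in the 7 comparisons, with red boxes for the 46 genes and grey boxes for all 13131 tested genes (box from the 25th to the 75th percentile, line at the median, whiskers at the 5th and 95th percentiles). The red medians are -3.73 and -3.35 for plasmablasts against GC B cells and lie between -0.11 and 0.44 elsewhere.

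Loss of Moz in day 7 GC B cells gave 0 called genes of 46 by edgeR, DESeq2 and limma-voom, and 0 with the block, against 0% and 0.297% of all tested genes. At an unadjusted p under 0.05 the counts were 0 of 46 (2.4% of all genes), and 5 with the block (10.2%). The median log2 change was -0.11, and 42 of 46 estimates lay below 0, against 52.4% of all genes. By pair within dates, 30 genes were lower and 16 higher in the knockout in pair 1, and 41 lower and 5 higher in pair 2. Of all tested genes 49.5% and 50% were higher in these pairs. The median differences of the 46 genes were -0.03 and -0.22 in log2 CPM. The pools did not overlap, with the knockouts lower, for 12 genes, against 13.4% of all genes. For 39 genes the interval stayed within 2-fold. Left-out pools moved the median between -0.25 (without Moz control pool 1) and 0.01 (without Moz control pool 2). Plasmablast markers lay above 0 in 10 of 10 cases (median 0.52) and GC markers below 0 in 12 of 12 (median -0.21), with 0 called, and their part was not tested.

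Pttg1 went the other way from most of these genes. It measured 16.5 and 44.7 TMM-scaled CPM in Moz control pools and 66.9 and 47.3 in Moz knockout pools, with both knockouts above both controls (log2 change 0.90, SE 0.44, edgeR adjusted p = 1). Without Moz control pool 2 the estimate was 1.79, and without pool 1 it was 0.35. Ttk measured 31.0 and 38.3 in controls and 25.6 and 27.2 in knockouts (-0.39, SE 0.26), and Spc25 measured 44.9 and 53.7 against 36.5 and 37.5 (-0.41, SE 0.28, edgeR adjusted p = 1, and 0.239 with the replicate block). Both genes were lower in both knockout pools, by less than the test could separate from the spread.

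Between control GC B cells of day 7 and day 12, 0 of the 46 genes were called, against 1.38% of all tested genes. These groups also differ in genotype, cre and date, which cannot be told apart from the day. The median log2 change was 0.14, 38 estimates lay above 0 (52.6% of all genes did), and 40 intervals lay within 2-fold. The 1 gene at an unadjusted p under 0.05, against 7.78% of all genes, was Pttg1, which changed by 1.05 (SE 0.46, edgeR adjusted p = 0.585). Without the filter on low counts its adjusted p was 0.00269, and without Moz control pool 2 the estimate was 0.16. Plasmablast markers were higher on day 7 in 6 of 10 cases. Their part in these values was not tested.

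The 2 pools of a group differed from each other in a pattern that followed gene length. Across the 46 genes, the difference of pool 1 minus pool 2 had a Spearman correlation with gene length of 0.69 in Myb control GC, 0.76 in Myb knockout GC, 0.71 in control plasmablasts, 0.66 in knockout plasmablasts and 0.52 in Moz control GC, and of -0.48 in Moz knockout GC. Over all tested genes the values were 0.33, 0.39, 0.45, 0.48, 0.21 and -0.32. These are descriptions across genes that share the same libraries. In Myb control GC the long Cenpe (7813 bases) measured 134 and 47.3 TMM-scaled CPM and the long Cenpf (11130 bases) 101 and 51.3, while the short Ube2c (931 bases) measured 107 and 109. Mki67, at 10075 bases, had 957 and 341. Same-numbered control and knockout pools, which share dates, show the same sign for Mki67 and Cenpe in day 12 GC B cells. The part of RNA quality or library preparation in this was not tested.

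**Figure D5:**
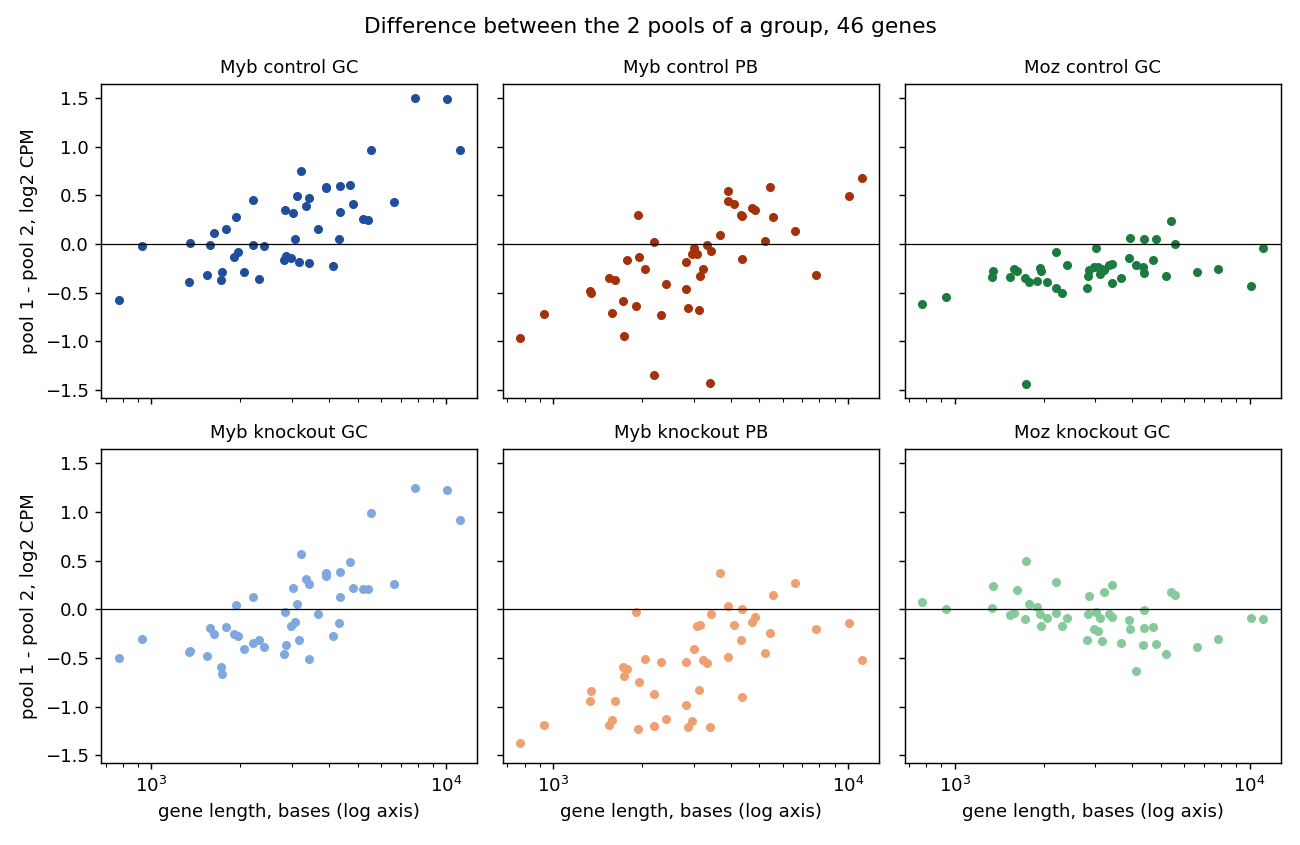
Difference between the 2 pools of each group (pool 1 minus pool 2, log2 CPM) against gene length in bases (log axis), with 1 point for each of the 46 genes and 1 panel per group. The points rise to the right in 5 panels (Spearman 0.52 to 0.76) and fall in the Moz knockout panel (-0.48).

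Other genes of the cell cycle were counted from lists of their own in the control plasmablast comparison, in which 28.1% of all tested genes were called lower and 25% higher, with a median of -0.17. Of 65 other mitotic genes 64 were lower (median log2 change -3.60), among them Cep55 (-4.38), Zwilch (-4.37), Trip13 (-4.22) and Cdca2 (-3.63). The exception was the condensin II subunit Ncapg2 (-0.31, edgeR adjusted p = 0.269). Of 39 DNA replication and S phase genes 39 were lower (median -3.16), with Chaf1b at -5.07, Uhrf1 at -5.04, Pold1 at -4.33 and Cdc6 at -3.80. Of 17 genes of the anaphase-promoting complex, which CDC20 and UBE2C serve, and of its regulators, 10 were lower, with a median of -0.82. The inhibitor Fbxo5 changed by -3.48, the subunit Anapc15 by -2.17, the alternative activator Fzr1 by -1.46 and the subunit Anapc7 by -1.26.

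Of 7 genes that brake CDK1, 5 were lower (median -0.83). The checkpoint kinases Chek1 and Chek2 changed by -3.35 and -1.48, and Pkmyt1 and Wee1, which phosphorylate CDK1, by -2.13 and -0.80. Cdkn1a (p21) was higher (1.43, edgeR adjusted p = 0.0222). Among 15 MuvB and DREAM regulators, a list that includes the NF-Y genes Nfya, Nfyb and Nfyc, 11 were lower (median -0.95). The MYB relatives Mybl1 (-6.71) and Mybl2 (-5.45) led, with Tfdp1 at -2.82 and E2f5 at -2.15. Rbl2 (p130), the pocket protein of the DREAM repressor, was higher (0.70, edgeR adjusted p = 0.0394). In the 3 knockout comparisons no gene of these 5 lists was called without the block. With it 1 gene was called, in Myb knockout plasmablasts, where 0.579% of all tested genes were. It was Cdca3, which triggers destruction of a CDK1 inhibitor kinase (0.86, SE 0.17, edgeR adjusted p = 0.0458).

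Within the 38 genes with a promoter sequence, the change in control plasmablasts is set beside the motifs as a description. The median log2 change was -3.68 for 29 genes with CCAAT and -4.03 for 9 without, -3.66 for 14 with a CHR and -3.88 for 24 without, and -3.52 for 13 with a MYB site and -3.76 for 25 without. The windows of Kif2c and Pttg1, both without CCAAT, lie within the annotated span of the gene. So do those of Aurka, Cdc25b and Ect2, which hold CCAAT. Mki67, with 2 CHR matches among the bases shown above, changed by -1.73, and Cdk1, also with 2, by -3.52. Cdca8, without one, changed by -4.85.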

How the data were processed

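The authors deposited raw read counts per Entrez gene ID. The submitters' processing notes name featureCounts and the mm10 build; for aligner, strand setting and versions, nothing is given in the sources used here. RefSeq GRCm38.p6 supplied symbols and promoters, and GENCODE M21 exon overlaps and near copies. The members and lists were chosen with earlier results of these data known. edgeR 4.0.16 (R 4.3.3) fitted all 12 libraries with 6 group means (6 residual degrees of freedom, robust quasi-likelihood F tests, two-sided, TMM scaling). Genes passed filterByExpr (minimum count 10, minimum total 15), and p-values were adjusted over 13131 genes at a limit of 0.05. The biological coefficient of variation was 0.221. Same-numbered knockout and control pools share experiment dates per the labels, so the replicate number served as a block in a further fit with 3 residual degrees of freedom. The deviations of such pools correlated at 0.600, 0.453 and 0.361, and those of same-numbered pools without a shared date at 0.247, 0.303 and 0.382, so the pairing rests on the labels and not on these values. The labels do not say that pools are independent litters, so p-values measure the spread between pools. With 2 pools against 2 an exact permutation p cannot go below 0.333. Genes were named by rule: in control plasmablasts against control GC all members, and in knockout comparisons called genes or the 3 smallest p. For knockout plasmablasts against knockout GC the text names the 3 largest and the 3 smallest changes. Cdkn3 and Cdk1 served there as examples of genes that moved without 1 pool. Pttg1, Mki67, Cenpe and Cenpf in the other comparisons, Ncapg2, Cdkn1a, Rbl2, Cdca3 and the GC markers were named after their values were seen. Alternatives were other scalings, filters, DESeq2 1.42.0, limma-voom 3.58.1, separate fits and leaving out each pool. The test was checked on simulated counts.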

Additional observations from a re-analysis of the deposited data

How the results depend on the processing

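The counts of called genes were 44 to 46 of 46 in both plasmablast against GC comparisons over the alternatives, and 0 in the Myb, Moz and interaction comparisons under every alternative run. Leaving out 1 pool gave 44 to 45 called genes in both plasmablast comparisons and 0 elsewhere. The medians then ran from -3.86 to -3.60 (control plasmablasts), -3.70 to -3.00 (knockout plasmablasts), 0.06 to 0.17 (Myb in GC), 0.07 to 0.65 (Myb in plasmablasts), -0.02 to 0.62 (interaction), -0.25 to 0.01 (Moz) and -0.00 to 0.27 (day 7 against 12). With total counts alone the medians were -5.61 (control) and -5.41 (knockout), while the medians of all genes were -2.04 and -2.21. Without the low-count filter 1 gene, Pttg1, was called between day 7 and day 12. With the replicate block 0 genes were called in the knockout comparisons, and the medians were 0.10 (Myb in GC), 0.42 (Myb in plasmablasts), 0.30 (interaction) and -0.10 (Moz). No paired analysis was possible because no dates are shared for plasmablasts against GC and for day 7 against day 12.

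Pttg1 changed sign without passing the test in the control comparison without Myb control GC pool 1 (-0.017) and without control plasmablast pool 2 (-0.43), with 0.53 at most without plasmablast pool 1, and with total counts alone it passed at -1.76. In the knockout comparison it was 0.018 with DESeq2 size factors, 0.049 without immunoglobulin genes, 0.0074 with DESeq2, 0.014 with only the groups compared, 0.29 without knockout GC pool 2, 0.26 without knockout plasmablast pool 1, -0.47 without knockout plasmablast pool 2, and -2.11 with total counts alone (edgeR adjusted p = 0.00104). Hmmr in Myb knockout GC B cells was -0.030 without Myb control GC pool 2 and 0.56 without Myb control GC pool 1. The causes were not tested. Depth limits the precision of the lowest plasmablast values, where members held as few as 8 counts. The 2 pools of a group differed beyond counting noise in each group (chi-square per degree of freedom 28.2 to 103).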
